A study of Mus musculus with 12 samples.

Results

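Acinar cells, which make and secrete the digestive enzymes of the pancreas, surround the islets, and RNA of their genes was followed in isolated islets through 32 genes: 29 that encode enzymes and other secretory products and 3 that encode transcription regulators. The genes were chosen by name from a list of acinar genes, and all 32 were found among the 38561 genes of the deposited count table. RNA was sequenced from islets of 12 male mice aged 11 weeks, which formed 4 groups of 3 with a library for each mouse. The NOD_insHEL mice had the NOD/LtJ background and the transgene Tg(ILK3mHEL)3Ccg, in which an insulin promoter drives hen egg lysozyme in beta cells. The NOD mice had the same background without the transgene. The B10_insHEL mice had the C57BL/10SnSg background with the transgene, and the B10 mice had that background without it. All 4 groups carried a targeted Rag allele (Rag-/-) and the MHC k haplotype, and all mice were normoglycemic, so every comparison is between mice without mature B and T cells. Islets were freed by collagenase with the transcription blockers α-amanitin and actinomycin D present, passed over dextran and then picked by hand, per the labels' protocols.

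Acinar cells release most digestive enzymes as inactive proenzymes, which are cut into their active form in the gut. Transcription of these genes depends on the PTF1 complex, in which PTF1A binds DNA with an E protein and RBPJL, while BHLHA15, also called MIST1, shapes the secretory apparatus of the cell. Acinar transcripts in islet RNA are known from adhering or carried-over exocrine tissue. In bulk RNA of this kind, fewer acinar cells and less RNA per acinar cell cannot be told apart.

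Library totals ran from 2212062 counts in NOD_insHEL replicate 3 to 21138456 in B10 replicate 2. Beta cell markers filled a large part of each library, with the summed level of 10 markers between 183776 and 294117 counts per 1000000 (CPM), and the lymphocyte markers stayed between 0.619 and 3.76 CPM in sum. B10_insHEL replicate 2 stood apart from the other mice of its group in acinar RNA, and its values are given apart from those of replicates 1 and 3 or the tests are repeated without it. The labels number the B10 mice in a range apart from all others. If that numbering marks a batch, it and the B10 group cannot be told apart.

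The 32 genes together took between 0.0137% and 0.517% of a library's counts. The NOD_insHEL libraries held 0.0182%, 0.0137% and 0.0147% in replicates 1 to 3. The NOD libraries held 0.0226%, 0.0390% and 0.0304%. In B10_insHEL the shares were 0.0174%, 0.276% and 0.0184%, and in B10 they were 0.451%, 0.408% and 0.517%. All 3 B10 libraries lay above the other 9, B10_insHEL replicate 2 came next, and the remaining 8 libraries lay close to the bottom of the scale. Counting error was small beside these gaps: the exact 95% binomial interval ran from 0.0132% to 0.0164% in the shallowest library, NOD_insHEL replicate 3.

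Without the 3 regulators the spread widened. The 29 enzymes and products took 0.00933%, 0.00464% and 0.00900% of counts in NOD_insHEL, 0.0169%, 0.0307% and 0.0239% in NOD, 0.00626%, 0.264% and 0.00353% in B10_insHEL, and 0.442%, 0.394% and 0.511% in B10. The highest library, B10 replicate 3, exceeded the lowest, B10_insHEL replicate 3, by 127-fold. Within a group the highest mouse exceeded the lowest by 2.04-fold in NOD_insHEL, 1.78-fold in NOD, 69.0-fold in B10_insHEL and 1.29-fold in B10, where the level was most even. B10_insHEL replicate 2 alone reached 61.6% of the B10 mean in summed CPM. The number of islets picked was 114, 94 and 77 in NOD_insHEL, 53, 137 and 108 in NOD, 44, 116 and 78 in B10_insHEL and 74, 50 and 20 in B10. The smallest pick, 20 islets, belonged to the library with the highest acinar share, while the pick of 44 islets belonged to a library near the bottom.

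**Figure D1:**
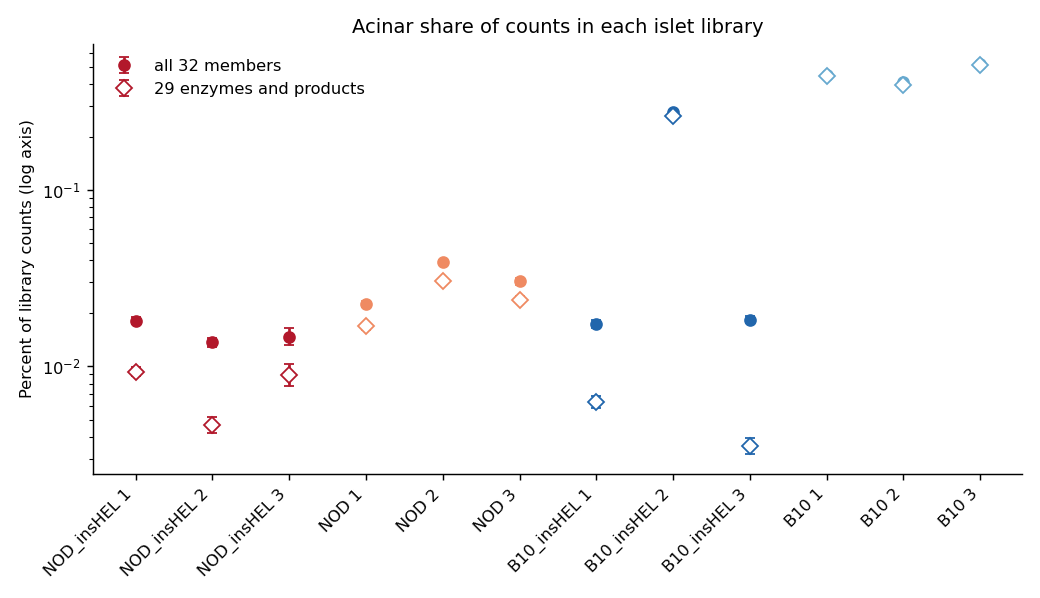
Share of each library's counts (percent, log axis) held by all 32 genes (filled circles) and by the 29 enzymes and products (open diamonds), with exact 95% binomial intervals, by group and replicate. The B10 libraries lie between 0.408% and 0.517% and B10_insHEL replicate 2 at 0.276%, while the other 8 libraries lie at or under 0.0390%.

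Summed markers of duct and beta cells moved less, while the summed alpha cell markers ran from 5892 to 32487 CPM within B10. The summed level of 8 duct markers was 259 to 281 CPM in NOD_insHEL, 334 to 406 CPM in NOD, 326 to 402 CPM in B10_insHEL and 353 to 448 CPM in B10. Krt7, at 161 to 207 CPM in all libraries, was the highest of the 8 in every library, while Sox9 stayed between 0.107 and 3.56 CPM, Krt19 between 0.264 and 9.67 CPM and Cftr between 0 and 1.67 CPM. Spp1, also of the 8, had 21.6, 24.9 and 10.3 CPM in NOD_insHEL and 82.4 to 147 CPM in the other groups. The summed beta cell markers were 254434 to 261884 CPM in NOD and 183776 to 204970 CPM in B10. Within B10_insHEL they were 273661 and 266718 CPM in replicates 1 and 3 and 205209 CPM in replicate 2, the library rich in acinar RNA. The part of alpha cell, beta cell or duct RNA in the acinar differences was not tested.

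The 250 bases upstream of the RefSeq start are given for the highest listed trypsinogen and elastase genes, Prss2 and Cela1. RNA of both followed the acinar total. The same bases are given for Amy2b and Bhlha15, whose RNA departed from that total. Sequences are from RefSeq on GRCm38.p6, written 5′ to 3′ on the strand of the gene. Capitals mark CACCTG or its reverse complement CAGGTG and TTTCCC or its reverse complement GGGAAA, the half-sites known from PTF1 binding sites, and TATAAA, searched on the gene's strand only. The regions are chr6:41521526-41521775 (plus strand) for Prss2, chr15:100687921-100688170 (minus strand) for Cela1, chr3:113156728-113156977 (minus strand) for Amy2b and chr5:144190036-144190285 (plus strand) for Bhlha15.
Prss2: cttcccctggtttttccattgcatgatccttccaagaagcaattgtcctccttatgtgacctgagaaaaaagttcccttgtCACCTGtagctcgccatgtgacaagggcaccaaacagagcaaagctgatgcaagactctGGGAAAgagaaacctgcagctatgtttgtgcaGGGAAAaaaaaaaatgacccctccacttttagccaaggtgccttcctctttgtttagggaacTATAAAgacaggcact
Cela1: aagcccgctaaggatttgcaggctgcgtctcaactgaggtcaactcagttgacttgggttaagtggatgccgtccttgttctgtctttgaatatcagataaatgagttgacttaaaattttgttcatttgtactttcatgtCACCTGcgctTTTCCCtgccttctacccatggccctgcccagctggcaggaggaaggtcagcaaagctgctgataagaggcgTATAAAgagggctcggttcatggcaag
Amy2b: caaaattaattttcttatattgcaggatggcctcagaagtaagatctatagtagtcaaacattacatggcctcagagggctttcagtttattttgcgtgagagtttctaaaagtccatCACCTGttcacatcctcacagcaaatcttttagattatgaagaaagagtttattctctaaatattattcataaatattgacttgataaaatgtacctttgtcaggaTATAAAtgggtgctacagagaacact
Bhlha15: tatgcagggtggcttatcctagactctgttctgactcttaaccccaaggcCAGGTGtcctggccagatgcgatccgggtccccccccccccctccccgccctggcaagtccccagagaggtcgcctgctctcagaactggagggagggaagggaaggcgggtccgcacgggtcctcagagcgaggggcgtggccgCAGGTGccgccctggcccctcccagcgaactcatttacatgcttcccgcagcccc
Counted upstream from the start, the CACCTG of Prss2 begins at base -169 and its GGGAAA runs begin at -110 and -78. In Cela1 CACCTG begins at -109 and TTTCCC follows it at -99. Amy2b has CACCTG at -132 and no TTTCCC or GGGAAA in this window, and Bhlha15 has CAGGTG at -200 and -55. RefSeq windows were found for 26 of the 32 genes. CACCTG or CAGGTG stood in 57.7% of these 26 windows and in 17.2% of 32851 windows of the same length over all genes. TTTCCC or GGGAAA stood in 30.8% of the 26 windows and in 21.9% of all, both half-sites in 23.1% and in 3.61%, and TATAAA in 30.8% and in 7.59%. Cpa1, Pnlip and Ctrb1 followed the acinar total more closely than Prss2 and Cela1 did. In their windows Cpa1 and Ctrb1 had TTTCCC or GGGAAA without CACCTG or CAGGTG, and Pnlip had neither half-site. Whether the half-sites go with the RNA levels was not tested. All these matches describe letters and no binding.

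Of the listed trypsinogens, the proenzymes of trypsin, Prss2 had the highest mean level (ENSMUSG00000057163, GRCm38 chromosome 6, 41521787 to 41525079, plus strand). Prss2 had 7.29, 2.64 and 6.10 CPM in NOD_insHEL, 6.77, 17.9 and 13.8 CPM in NOD, 4.41, 213 and 1.55 CPM in B10_insHEL, and 309, 282 and 347 CPM in B10. The B10 libraries lay above all others, B10_insHEL replicate 2 lay within reach of them, and the rest stayed under 20 CPM. The trypsinogen genes Try4 and Try5 showed the same order, with means of 2.87 ± 0.417 and 5.17 ± 0.834 CPM in NOD and 83.6 ± 15.6 and 99.9 ± 17.7 CPM in B10 (SD, n = 3 each). Prss1 and Try10 reached at most 0.0870 and 1.04 CPM in any library and were not tested. Reads of this family are uncertain in their assignment, since 65.6% of the 50-base words of the Try4 transcripts, 47.6% of Try5 and 7.83% of Prss2 also occur in transcripts of other genes.

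Ctrb1, a chymotrypsinogen gene on chromosome 8 (ENSMUSG00000031957, 111686519 to 111691010, minus strand), had the highest mean level of all 32 genes. Ctrb1 had 14.0, 5.28 and 8.92 CPM in NOD_insHEL, 26.3, 45.6 and 30.1 CPM in NOD, 12, 366 and 3.92 CPM in B10_insHEL, and 694, 591 and 749 CPM in B10. All 3 NOD libraries lay above all 3 NOD_insHEL libraries and far under B10. Ctrl, which encodes a chymotrypsin-like enzyme, followed Ctrb1, at 6.03 ± 2.06 CPM in NOD and 135 ± 15.4 CPM in B10 (SD, n = 3 each). Ctrc encodes chymotrypsin C, which in humans degrades trypsinogen. Ctrc had 1.73, 1.71 and 1.88 CPM in NOD_insHEL, 2.23, 3.63 and 2.16 CPM in NOD, 0.537, 11.4 and 0.206 CPM in B10_insHEL, and 37.7, 32.2 and 47.0 CPM in B10. The 2 B10_insHEL libraries poor in acinar RNA had less Ctrc than any NOD_insHEL library. That order rests on few counts, 5 and 2 in those libraries and 18, 13 and 4 in NOD_insHEL. Ctrc overlaps Cela2a on the same strand and shares 17.7% of its words with it, so that their counts are less certain.

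Pancreatic elastase genes were led by Cela1 on chromosome 15 (ENSMUSG00000023031, 100674421 to 100687921, minus strand). Cela1 had 9.97, 7.39 and 7.98 CPM in NOD_insHEL, 23.6, 18.4 and 22.8 CPM in NOD, 3.87, 220 and 5.78 CPM in B10_insHEL, and 316, 259 and 322 CPM in B10. Its NOD_insHEL values lay above B10_insHEL replicates 1 and 3 and under every NOD value. Cela2a and Cela3b were lower than Cela1 in level and likewise highest in B10, with 7.80 ± 3.38 and 3.73 ± 1.19 CPM in NOD and 205 ± 13.1 and 86.4 ± 8.63 CPM in B10 (SD, n = 3 each). Cela3a was at 0 counts outside B10, where it reached 0.0682 CPM at most.

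Carboxypeptidases trim the ends of the peptides that the other proteases release. Cpb1, on chromosome 3 (ENSMUSG00000011463, 20248264 to 20275733, minus strand), had 6.90, 2.90 and 3.29 CPM in NOD_insHEL, 7.02, 18.5 and 14.0 CPM in NOD, 4.08, 262 and 3.82 CPM in B10_insHEL, and 403, 366 and 531 CPM in B10. NOD replicate 1 nearly met the highest NOD_insHEL library, and B10 again stood alone at the top. Cpa1 averaged 4.53 ± 1.91 CPM in NOD_insHEL, 13.1 ± 3.83 CPM in NOD, 65.9 ± 108 CPM in B10_insHEL and 296 ± 45.6 CPM in B10 (SD, n = 3 each). The B10_insHEL mean rests on replicate 2, at 191 CPM, since replicates 1 and 3 had 3.76 and 3.40 CPM.

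Lipases and their partner colipase were led by Pnlip, which encodes pancreatic lipase (ENSMUSG00000046008, chromosome 19, 58652498 to 58681788, plus strand). Pnlip had 8.53, 5.94 and 13.6 CPM in NOD_insHEL, 16.4, 36.3 and 33.1 CPM in NOD, 6.98, 365 and 3.61 CPM in B10_insHEL, and 566, 573 and 751 CPM in B10. The carboxyl ester lipase gene Cel averaged 2.73 ± 1.17 CPM in NOD_insHEL, 10.0 ± 4.19 CPM in NOD, 47.2 ± 76.2 CPM in B10_insHEL and 271 ± 31.5 CPM in B10 (SD, n = 3 each). Cel too was high in B10_insHEL replicate 2 alone, at 135 CPM, against 3.55 and 2.89 CPM in replicates 1 and 3. Clps, which encodes colipase, the cofactor that lets lipase work in the presence of bile salts, had a narrower span. Clps had 6.33, 5.14 and 10.3 CPM in NOD_insHEL, 12.4, 30.5 and 20.4 CPM in NOD, 6.23, 71.8 and 3.51 CPM in B10_insHEL, and 108, 93.8 and 108 CPM in B10. Pnliprp1, Pnliprp2 and the secreted phospholipase gene Pla2g1b ordered the groups as Pnlip did, with B10 means of 196, 34.9 and 13.3 CPM.

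Among the other secretory products, Rnase1, which encodes the pancreatic ribonuclease (ENSMUSG00000035896, chromosome 14, 51144998 to 51146785, minus strand), was highest. Rnase1 had 6.23, 2.51 and 9.86 CPM in NOD_insHEL, 12, 17.4 and 9.94 CPM in NOD, 4.62, 103.8 and 2.79 CPM in B10_insHEL, and 147, 143 and 194 CPM in B10. The zymogen granule genes Zg16, Gp2, Sycn and Cuzd1 averaged 5.42, 1.05, 2.97 and 0.306 CPM in NOD and 66.9, 36.6, 31.3 and 12.3 CPM in B10, in that order. Zg16 was uneven within NOD_insHEL, at 6.90, 0.396 and 0.470 CPM. The tissue kallikrein gene Klk1 averaged 1.27 ± 0.356 CPM in NOD and 31.5 ± 0.957 CPM in B10 (SD, n = 3 each). Spink3, the trypsin inhibitor gene that the annotation lists as Spink1, averaged 0.822 ± 0.376 CPM in NOD and 7.50 ± 1.35 CPM in B10. Of the 50-base words of Klk1 24.0% recur in other genes, and Cuzd1 overlaps Fgfr2 on the same strand.

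**Figure D2:**
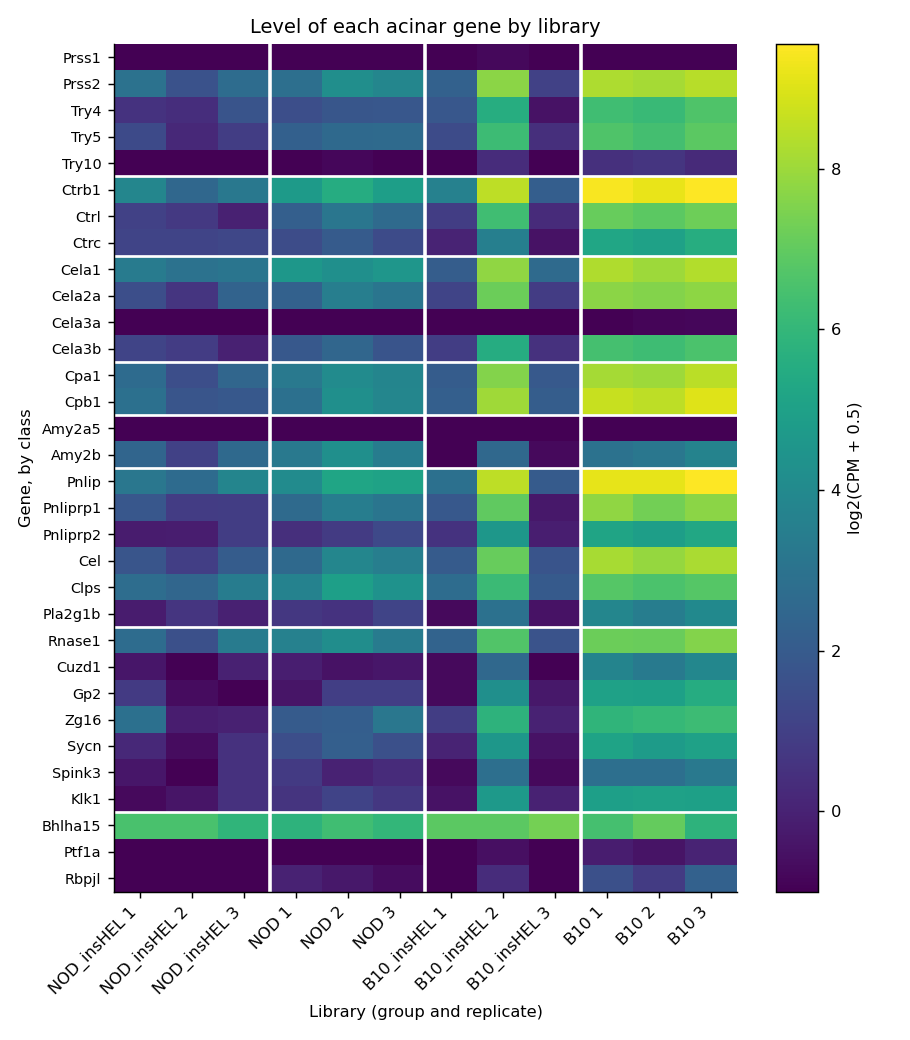
Level of each of the 32 genes, as log2(CPM + 0.5) by colour, with genes down the page by class and libraries across by group and replicate. Most enzyme genes are bright in the 3 B10 libraries and B10_insHEL replicate 2 and dark elsewhere, whereas Bhlha15 is bright in all 12 libraries and Amy2b is brightest in NOD replicate 2.

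Amylase RNA departed from this order. Amy2b (ENSMUSG00000083079, chromosome 3, 113147656 to 113156727, minus strand), named for pancreatic amylase, which digests starch, is annotated as an unprocessed pseudogene in GENCODE release M21. Amy2b had 4.89, 1.58 and 5.63 CPM in NOD_insHEL, 9.17, 18.5 and 10.2 CPM in NOD, 0, 5.39 and 0.103 CPM in B10_insHEL, and 7.49, 8.61 and 12.6 CPM in B10. NOD and B10 overlapped, unlike nearly every other enzyme gene. Amy2a5, a pancreatic amylase gene, had 0 counts in all 12 libraries.

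Set against the enzyme total, Amy2b separated the backgrounds. Per 1000 counts of the 29 enzymes and products, Amy2b took 50.4, 33.2 and 60.3 in NOD_insHEL and 55.4, 62.6 and 43.9 in NOD. It took 0, 2.05 and 2.70 in B10_insHEL and 1.78, 2.29 and 2.60 in B10. All 6 libraries of NOD background lay above all 6 of B10 background, including B10_insHEL replicates 1 and 3, whose enzyme and product share was under 0.00933%, the highest in NOD_insHEL. The lowest exact 95% binomial limit on the NOD side was 17.3 per 1000, in NOD_insHEL replicate 2, and the highest on the B10 side was 15.0 per 1000, in B10_insHEL replicate 3, where 1 count was found among 370. In B10_insHEL replicate 1, with 0 of 620 counts, the upper exact 95% limit was 5.93 per 1000.

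The amylase genes are close copies of each other, which limits how their counts can be read. Of the 50-base words of Amy2b transcripts 40.2% recur in other genes, and for Amy2a5 the share was 53.5%. Amy2a2, Amy2a3 and Amy2a4 shared 100% of theirs, and Amy2a2 reached at most 1.46 CPM. Amy2a1, which shared 94.9%, had 6.70 CPM in B10_insHEL replicate 2 and at most 0.204 CPM in any other library. Amy1, which encodes the salivary and liver amylase, had 1.63, 1.32 and 5.16 CPM in NOD_insHEL, 4.71, 7.85 and 6.91 CPM in NOD, 1.29, 2.70 and 0.928 CPM in B10_insHEL, and 3.34, 1.62 and 3.20 CPM in B10. Of its 50-base words 33.3% recur in other genes, mainly Rnpc3, Amy2b and Amy2a5, so its counts too are uncertain. Amy1 was higher in NOD than in B10 by 1.27 on the log2 scale (SE 0.39, edgeR quasi-likelihood test with Benjamini-Hochberg adjustment over all genes, adjusted p = 0.0196). Between NOD_insHEL and B10_insHEL it differed by 0.31 (SE 0.52, adjusted p = 0.766), and it fell in NOD_insHEL relative to NOD, with a log2 difference of -1.64 (SE 0.46, adjusted p = 0.0393). The interaction of strain and insHEL for Amy1 was -0.96 (SE 0.65, adjusted p = 0.573). Reads were mapped to GRCm38 in both backgrounds, and whether reads of NOD alleles spread otherwise over the amylase copies was not tested.

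On counts of the 29 enzymes and products scaled by exon length, NOD libraries held 24.1 ± 2.13% chymotrypsinogens, 30.1 ± 3.77% lipases, 13 ± 1.41% trypsinogens, 8.81 ± 1.89% elastases and 5.94 ± 0.497% carboxypeptidases (SD, n = 3). B10 libraries held 28.9 ± 0.720% chymotrypsinogens, 22.5 ± 0.131% lipases, 18.9 ± 0.258% trypsinogens, 9.50 ± 0.463% elastases and 9.46 ± 0.565% carboxypeptidases (SD, n = 3). The amylase class took 3.68 ± 0.965% in NOD_insHEL, 4.14 ± 0.635% in NOD, 0.133 ± 0.118% in B10_insHEL and 0.190 ± 0.0370% in B10 (SD, n = 3 each). This class was Amy2b alone, since Amy2a5 had 0 counts, so it is not the share of all amylase RNA. Per length, Ctrb1, Clps and Prss2 led in NOD and Ctrb1, Prss2 and Pnlip led in B10. Of the 10 leading genes of B10, 7 were among the first 10 in NOD_insHEL, 7 in NOD and 8 in B10_insHEL.

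**Figure D3:**
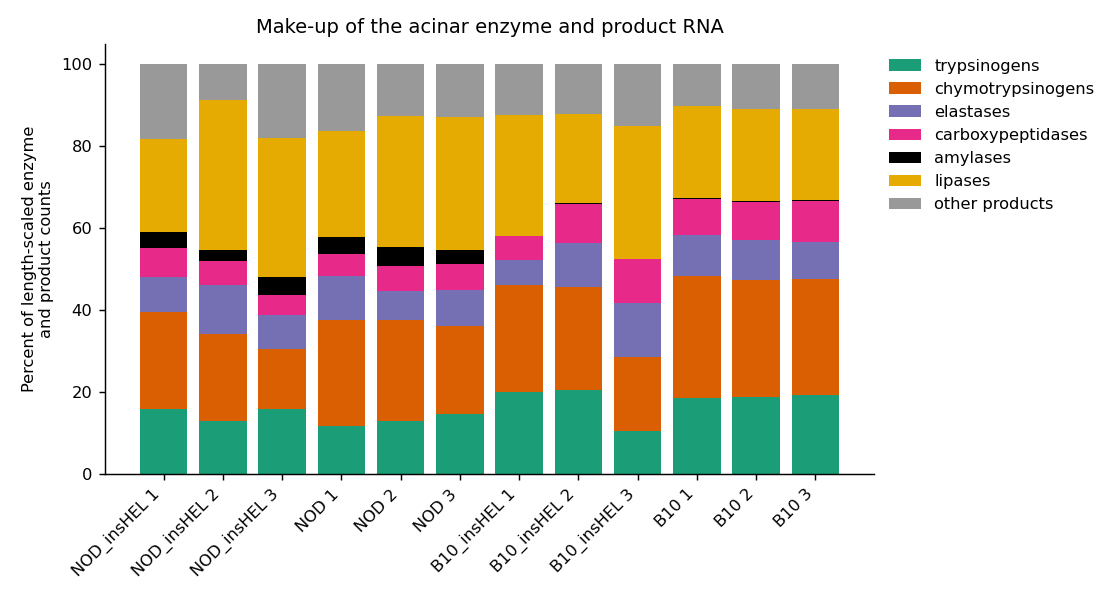
Make-up of the RNA of the 29 enzymes and products in each library, as percent of counts scaled by exon length, by class. The amylase class (black), here Amy2b alone, takes 2.60% to 4.70% in the 6 libraries of NOD background and at most 0.225% in the 6 of B10 background. Chymotrypsinogens, trypsinogens and lipases make up most of every bar.

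Colipase, singled out after its values were seen, took different shares in libraries rich and poor in acinar RNA. Clps took 65.2, 108 and 111 of 1000 enzyme and product counts in NOD_insHEL, 74.9, 103 and 87.8 in NOD, 93.5, 27.3 and 91.9 in B10_insHEL, and 25.6, 25.0 and 22.2 in B10. The 4 libraries rich in acinar RNA lay between 22.2 and 27.3, and the other 8 lay at 65.2 or above. Exact 95% binomial limits of those 8 libraries started at 50.8, and those of the 4 rich libraries ended at 29.2. Ctrb1 took 95.5 to 181 of 1000 counts over the 12 libraries, with no such split. The split was not particular to Clps. For Rnase1 the log2 share, with 0.5 CPM added, was -4.84 to -4.64 in the 4 rich libraries. In the other 8 it was -4.48 to -3.18, a narrower gap. Scaled by length, Rnase1 in NOD replicate 3, at 5.33%, lay under B10 replicate 3, at 5.48%. Some genes at lower levels split likewise on the log2 scale, where the added 0.5 CPM weighs more. Among all enzyme and product genes Cpa1 followed the summed level of the 29 most closely: the SD over the 12 libraries of log2 of its share was 0.223, followed by Pnlip at 0.25, Ctrb1 at 0.256 and Prss2 at 0.258. For Clps it was 0.979 and for Amy2b 2.17.

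The regulators did not move as one group. Bhlha15 (ENSMUSG00000052271, chromosome 5, 144190286 to 144194441, plus strand) had 92.1, 92.7 and 59.6 CPM in NOD_insHEL, 55.7, 80.0 and 62.9 CPM in NOD, 118, 119 and 161 CPM in B10_insHEL, and 87.2, 132 and 55.6 CPM in B10. The groups without the transgene overlapped, and every B10_insHEL library lay above every NOD_insHEL library. Its lowest level of all 12, in B10 replicate 3, stood in the library with the highest enzyme share. Per 1000 counts of the 29 enzymes and products, Bhlha15 had 950, 1947 and 638 in NOD_insHEL, 336, 271 and 270 in NOD, 1776, 45.3 and 4208 in B10_insHEL, and 20.7, 35.3 and 11.5 in B10. Against its place on an acinar list, Bhlha15 RNA did not follow the acinar total in these libraries, and it is left out of the total of 29. It remains in the shares of all 32 genes, where the regulators made up 66.1% of member counts in NOD_insHEL replicate 2 and 80.8% in B10_insHEL replicate 3, and in the medians over the 27 tested genes.

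Rbpjl, which encodes the acinar partner of PTF1A (ENSMUSG00000017007, chromosome 2, 164403141 to 164415448, plus strand), was low but ordered as the enzymes were. Rbpjl had 0 counts in all 3 NOD_insHEL libraries, 0.495, 0.291 and 0.144 CPM in NOD, 0, 0.783 and 0 CPM in B10_insHEL, and 2.52, 1.26 and 4.36 CPM in B10. Against 3 counts over the 3 NOD_insHEL libraries, the level was at least 2.25-fold lower in NOD_insHEL than in NOD and at least 1.98-fold lower than in B10_insHEL. All 9 Rbpjl counts of B10_insHEL came from replicate 2, and without it both insHEL groups were at 0 counts. Ptf1a (ENSMUSG00000026735, chromosome 2, 19445663 to 19447501, plus strand) had 0 counts in NOD_insHEL and NOD, 0, 2 and 0 counts in B10_insHEL and 7, 5 and 8 counts in B10. Its level was at least 4.05-fold lower in NOD than in B10 on the same floor, and it was too low to test. Ptf1a overlaps an antisense gene, Ptf1aos, and Rbpjl overlaps Matn4 on the other strand. The strand setting of the counting is not stated.

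RNA of the E proteins and of RBPJ, general partners in PTF1, was present throughout. The E protein genes Tcf3 and Tcf12 had 17.2 to 37.4 CPM and 50.7 to 71.8 CPM over the 12 libraries, and Rbpj, the common form of the RBPJ factor, had 11.2 to 19.9 CPM. The list that held these genes also held Gata6, Xbp1, Nr5a2 at 1.17 to 4.36 CPM and Gata4 at 0 to 1.35 CPM. Of 6 tested genes of this list, 2 were higher in NOD than in B10 (Tcf3 and Nr5a2), 1 was lower (Tcf12) and 3 did not pass. Over all 15352 tested genes, 2065 were higher and 2288 lower in this comparison.

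**Figure D4:**
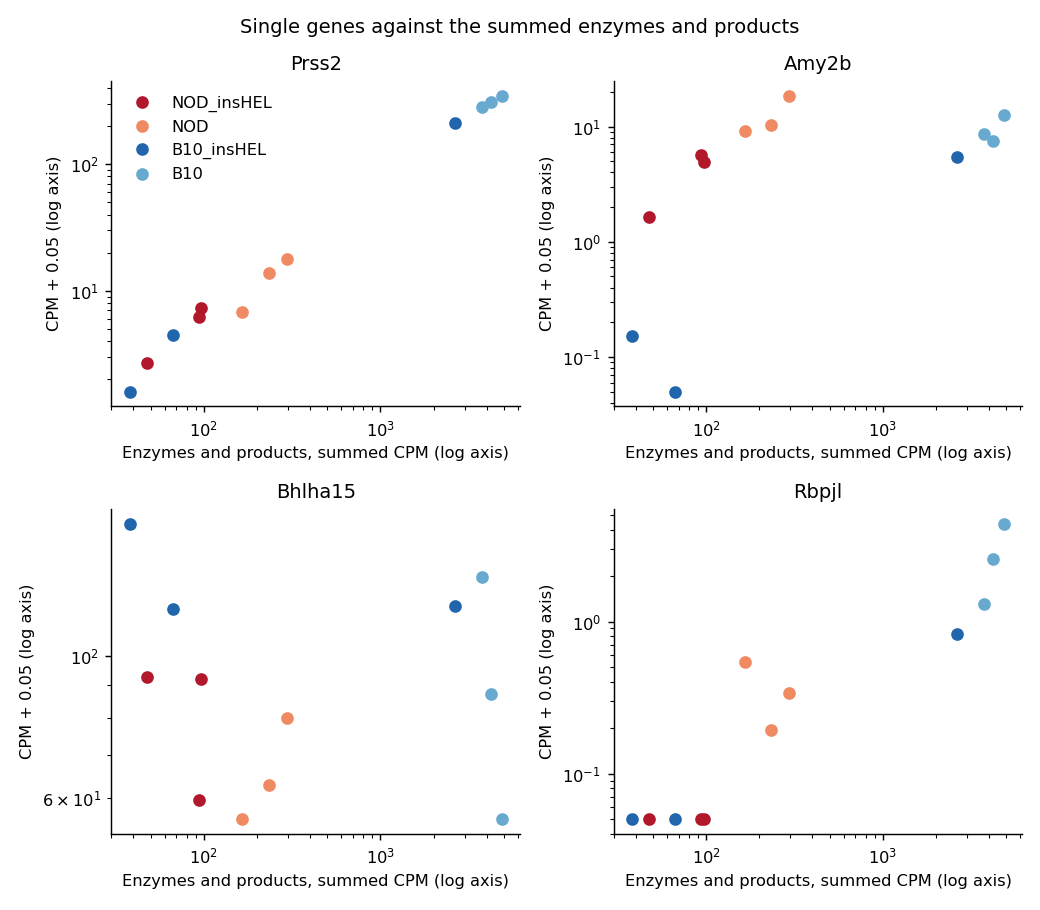
Level of Prss2, Amy2b, Bhlha15 and Rbpjl (CPM + 0.05, log axis) against the summed CPM of the 29 enzymes and products (log axis), 1 point per library, coloured by group. Prss2 climbs with the sum over all 12 libraries, Amy2b forms separate bands for NOD and B10 background, Bhlha15 stays between 55.6 and 161 CPM, and Rbpjl is detected in the libraries with more enzyme RNA.

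NOD islets were compared with B10 islets gene by gene, and 27 of the 32 genes passed the filter on low counts. Of these, 18 fell in NOD, 0 rose and 9 did not pass (edgeR quasi-likelihood test, Benjamini-Hochberg adjusted over 15352 genes at 0.05), while 14.9% of all tested genes were called lower. The median log2 difference of the 27 was -4.46, against 0.03 for all genes. All 3 tested trypsinogens fell, with Try4 lowest (log2 difference -4.87, SE 1.24, adjusted p = 0.0202), together with both carboxypeptidases. Ctrl and Ctrc, Cela2a and Cela3b, and the lipase genes Pnliprp1, Pnliprp2, Cel and Pla2g1b fell as well. Of the other products Rnase1, Cuzd1, Gp2 and Klk1 fell, Cuzd1 by the most (-5.28, SE 1.20, adjusted p = 0.0113), and of the regulators Rbpjl fell (-2.97, SE 0.76, adjusted p = 0.00964).

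Genes that missed the threshold were mostly as far apart. Ctrb1 differed by -4.31 (SE 1.40, adjusted p = 0.0513), Pnlip by -4.47 (SE 1.48, adjusted p = 0.0556) and Cela1 by -3.80 (SE 1.29, adjusted p = 0.0594), and Clps, Zg16, Sycn and Spink3 lay between -3.71 and -2.28. Amy2b differed by 0.42 (SE 0.79, adjusted p = 0.732) and Bhlha15 by -0.47 (SE 0.30, adjusted p = 0.284). In 25 of the 27 genes, all but these last, every NOD library lay under every B10 library, as in 23.8% of all tested genes. A list of other acinar genes with no member of the 32 went the same way: 8 of 8 tested genes fell, with a median of -3.97. In the same comparison 6 of 6 endothelial markers were higher in NOD, and their part in the result was not tested.

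The count of 18 moved with the libraries in the fit. Without any one B10_insHEL library 25 of the 27 genes fell, and without its replicate 2 the median was -4.46. The count was 3 without NOD replicate 1, 1 without NOD replicate 2, 3 without NOD replicate 3, 4 to 6 without any one B10 library and 11 without any one NOD_insHEL library, and it was 8 once the number of islets entered the fit. No share over all tested genes is given for these fits.

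**Figure D5:**
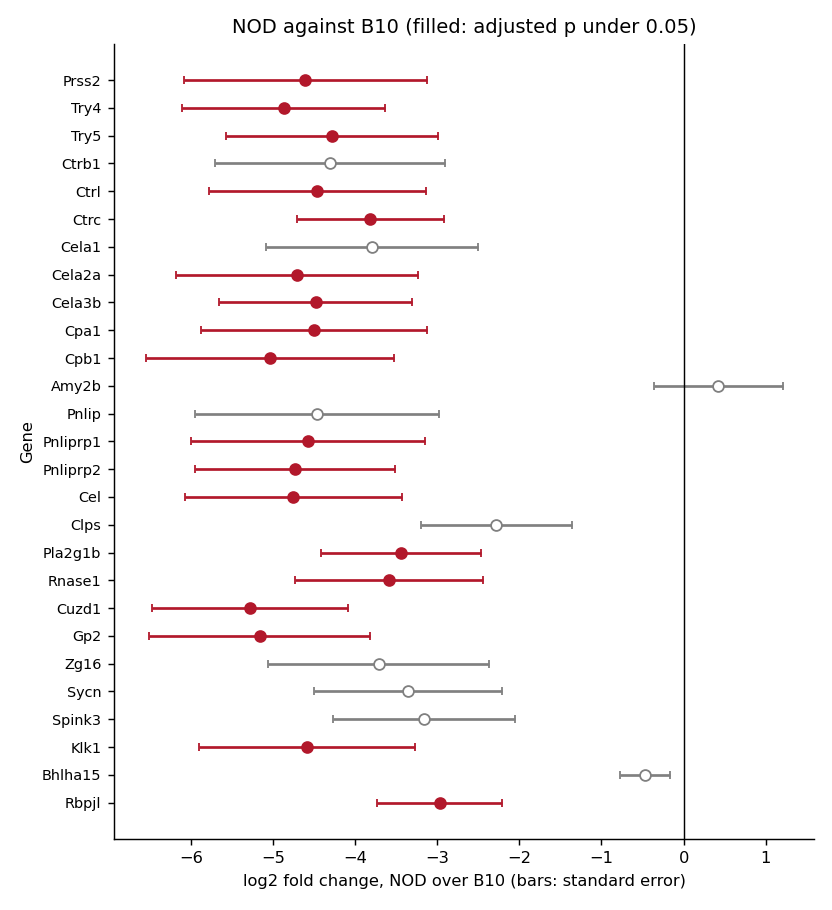
Log2 difference of NOD over B10 for the 27 tested genes with its standard error (edgeR). Filled points passed an adjusted p of 0.05. The 18 filled points lie left of 0, while Amy2b, at 0.42, lies right of it.

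Within insHEL islets, 0 of the 27 genes passed between NOD_insHEL and B10_insHEL (edgeR, adjusted), where 12.1% of all tested genes were called. At an unadjusted p under 0.05 there were 12, and DESeq2 called 9 lower. The median log2 difference was -3.79, and it turned to 0.41 without B10_insHEL replicate 2, when 3 genes rose: Cela1 by 0.84 (adjusted p = 0.0168), Ctrc by 2.21 (adjusted p = 0.00864) and Amy2b by 5.88 (adjusted p = 0.00209). For Amy2b the 2 remaining B10_insHEL libraries held 1 count in all, so the size of its change is not well set. For Ctrc they held 5 and 2 counts, and NOD_insHEL replicate 3 held 4, so its change is not well set either. The 12.1% belongs to the edgeR fit of all 12 libraries. No share over all tested genes is given for DESeq2 or for the fit without replicate 2. In 1 gene of 27, Bhlha15, the libraries did not overlap, with NOD_insHEL lower, against 14.2% of all tested genes, and its difference of -0.68 missed the threshold (SE 0.31, adjusted p = 0.207).

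Between B10_insHEL and B10, 1 of the 27 genes fell, Rbpjl (-3.16, SE 0.79, adjusted p = 0.0267 with edgeR), where 2.76% of all tested genes were called lower. Every B10_insHEL library lay under every B10 library in 25 genes, all but Spink3 and Bhlha15, as in 13.5% of all tested genes. The median log2 difference was -2.15. Without B10_insHEL replicate 2 it was -6.38 and 26 genes fell, all but Bhlha15. The 2.76% belongs to the fit of all 12 libraries, and no share over all tested genes is given for the fit without replicate 2. The Rbpjl call ended without B10_insHEL replicate 1 or 3 or without B10 replicate 1 or 3, once the number of islets or the replicate block entered the fit (adjusted p = 0.108 and 0.0767) and in a fit of these groups alone (adjusted p = 0.0814).

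Between NOD_insHEL and NOD, 0 of the 27 genes passed with edgeR, 0 had an unadjusted p under 0.05, and DESeq2 called 0, where 7.06% of all tested genes were called. The median log2 difference was -1.54. In 17 of the 27 genes every NOD_insHEL library lay under every NOD library, among them Ctrb1, Cela1, Pnlip, Cel and Amy2b, as in 13.3% of all tested genes. In a fit of these groups alone 14 genes fell, and without B10_insHEL replicate 2 in the shared fit 12 did. Both comparisons with NOD share the NOD libraries, and both with B10_insHEL share its replicate 2. The interaction of strain and insHEL passed in 0 of 27 genes (edgeR and DESeq2, 0 also at an unadjusted p under 0.05), where 0.0586% of all tested genes were called, and without B10_insHEL replicate 2 in 20, all higher. The 7.06% and 0.0586% belong to the edgeR fit of all 12 libraries. For the other fits of this paragraph no share over all tested genes is given.

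To compare the backgrounds at an equal level of acinar RNA, strain and insHEL were fitted together with the summed level of the 12 other acinar genes, none of them a member of the 32, as a covariate. That sum was 23.0 to 43.4 CPM in NOD_insHEL, 23.7 to 27.8 CPM in NOD, 19.4 to 139 CPM in B10_insHEL and 202 to 286 CPM in B10. For strain 0 of the 27 genes passed with edgeR, where 12.5% of all tested genes were called, and 2 had an unadjusted p under 0.05. The median difference of the 27 was -0.04. Amy2b was at 3.04 (SE 0.99, adjusted p = 0.0809) and Bhlha15 at -0.74 (SE 0.29, adjusted p = 0.134), which passed once the number of islets entered the fit (adjusted p = 0.0219). Amy2b was called higher in NOD by DESeq2 (4.66, adjusted p = 0.000202) and with each other measure of acinar level tried by edgeR. It was at 4.20 with the mean log2 of the other acinar genes (adjusted p = 0.0266), at 6.50 with the summed members (adjusted p = 1.56e-06) and at 5.53 with the summed enzymes and products (adjusted p = 8.3e-08). It was also called without NOD replicate 2 (3.19, adjusted p = 0.0244) and without B10_insHEL replicate 2 (4.22, adjusted p = 0.000923). Its difference lay between 2.28 and 4.22 over the fits that each lacked 1 library, with adjusted p between 0.000923 and 0.330. Both sums over the members include Amy2b itself.

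For insHEL in the same fit 1 of 27 genes fell, Ctrc (-0.94, SE 0.27, adjusted p = 0.0284 with edgeR), where 5.2% of all tested genes were called lower. This call ended with each of the other measures of acinar level (adjusted p = 0.269, 0.485 and 0.508) and without NOD_insHEL replicate 1, NOD replicate 2 or B10 replicate 2. Without B10_insHEL replicate 2, 22 genes fell. The 5.2% belongs to the fit of all 12 libraries, and no share over all tested genes is given for the fit without replicate 2.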

How the data were processed

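The authors deposited a table of raw read counts per Ensembl gene for 12 libraries. The submitters' processing notes name cutadapt, TopHat2 2.0.8b and HTSeq, and the genome build GRCm38. Strand setting and handling of reads with several matches are not given in the sources used here. Of 38561 gene IDs, 95.0% had a GENCODE M21 symbol. Genes passing edgeR's filter (15352) were fitted with edgeR 4.0.16 in R 4.3.3 (TMM, robust quasi-likelihood F-tests, 1 coefficient for each of 4 groups, Benjamini-Hochberg, threshold 0.05), tested on simulated data first. CPM are counts per 1000000 of TMM-scaled library size. A library's floor of 3 counts in its raw total lay between 0.142 and 1.36 CPM, and intervals and floors cover counting error only. Alternatives included DESeq2 1.42.0. Members and lists were chosen with earlier results of these data known. Values per library are given for the highest member of each class, the regulators and members called at equal acinar level. Genes outside the list were the 15 nearest to the summed members, of which 1 is not reported here.

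Same-numbered samples of different groups did not deviate together (correlations from -0.0950 to 0.0803 over 18 pairs), so replicate numbers were not taken as pairs.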

Additional observations from a re-analysis of the deposited data

How the results depend on the processing

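All shares of tested genes called, here and above, come from the edgeR fits of all 12 libraries. Counts of members from any other fit stand without such a share. Between NOD_insHEL and B10_insHEL, DESeq2 called 9 members lower and a fit of those groups alone 1. Between NOD and B10 the count was 8 with the number of islets as a covariate, and otherwise 13 to 25 outside left-out libraries. Between B10_insHEL and B10 it was 0 with the number of islets and 0 in a fit of those groups alone, and between NOD_insHEL and NOD 14 in such a fit. For strain at equal acinar level, DESeq2 called 1 higher, the number of islets 1 lower, the mean log2 of other acinar genes 2 higher, summed members 4 higher, and summed enzymes and products, an alternative added after the data were seen, 1 higher and 1 lower. Under those 3 measures 0 members were lower for insHEL. The replicate numbers did not pair the samples. With them as a replicate block 13 members were lower in NOD than in B10 and 0 in B10_insHEL than in B10, and for strain at equal level 1 was higher and 1 lower. The block gave median log2 differences of -4.72 for NOD against B10, -3.04 for NOD_insHEL against B10_insHEL, -3.01 for B10_insHEL against B10 and -1.47 for NOD_insHEL against NOD.

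With each library left out in turn, lower counts ran from 1 to 25 for NOD against B10, 0 to 26 for B10_insHEL against B10, 0 to 12 for NOD_insHEL against NOD, 0 to 1 for NOD_insHEL against B10_insHEL (higher 0 to 3), 0 to 1 for strain (higher 0 to 2) and 0 to 22 for insHEL at equal level, and higher counts from 0 to 20 for the interaction. The extremes of 26, 12, 3, 20 and 22 came without B10_insHEL replicate 2. The 2 higher for strain came without NOD_insHEL replicate 1, and both single lower calls without B10 replicate 3. Mean share of counts ran from 0.0142% to 0.0165% in NOD_insHEL, 0.0265% to 0.0347% in NOD, 0.0179% to 0.147% in B10_insHEL and 0.430% to 0.484% in B10. The median of NOD_insHEL against B10_insHEL ran from -4.40 to 0.41, Cela1 from -3.71 to 0.84 and Ctrc from -1.83 to 2.21, each positive without B10_insHEL replicate 2. Without that library the B10_insHEL against B10 median was -6.38 and the interaction median 4.74. The insHEL median at equal level turned to 0.033 with summed members, 0.060 with summed enzymes and products and ran from -2.05 to 0.10 over left-out libraries, the highest without NOD_insHEL replicate 1, and Cpb1 for strain turned to 0.83 with summed members. The cause was not tested.

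The NOD_insHEL share was 0.00766% without regulators. Class shares depend on the scale. In counts of all members, NOD_insHEL held 5.05% trypsinogens, 7.44% chymotrypsinogens, 7.66% elastases, 5.37% carboxypeptidases, 14.2% lipases and 51.2% regulators. NOD held 6.93% trypsinogens, 14.3% chymotrypsinogens, 11.5% elastases, 8.63% carboxypeptidases, 23.2% lipases, 8.52% other products and 22.7% regulators. B10_insHEL held 4.93% other products, and B10 held 11.4% trypsinogens, 19.5% chymotrypsinogens, 13.5% elastases, 16.6% carboxypeptidases, 28.5% lipases, 7.94% other products and 2.26% regulators. Length-scaled without regulators, NOD_insHEL held 14.8% trypsinogens, 19.9% chymotrypsinogens, 9.55% elastases, 5.94% carboxypeptidases and 31.1% lipases, NOD 24.1% chymotrypsinogens and 5.94% carboxypeptidases, B10_insHEL 28.0% lipases and 13.1% other products, and B10 22.5% lipases.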

Other observations

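Outside the 32 genes and their close copies, the genes whose level stayed closest to the summed members over the 12 libraries were looked for among 9577 genes with a mean of at least 10 CPM. The measure was the SD over the 12 libraries of log2 of the gene's level over the summed members, Bhlha15 included. Among the nearest were Reg3b at 0.96, Reg1 at 1.03, Dmbt1 at 1.06 and Reg2 at 1.32. Of these, Dmbt1 belonged to the list of 12 other acinar genes whose sum was the covariate above. Reg1, Reg2 and Reg3b encode secreted C-type lectins of the Reg family. Hipk2, Hdac9, Dzip1l, Chac1, Gnpda1, Psd4, St8sia1, Mt1, Pgf and Dennd4c followed, between 1.42 and 1.48. Against the 29 enzymes and products alone, Reg3b stood at 0.99, Reg1 at 1.01, Dmbt1 at 1.06 and Reg2 at 1.25, while Psd4 stood at 2.02. For scale, Amy2a5, with 0 counts in all 12 libraries, stood at 2.70 there. Psd4 and the others after Reg2 thus followed the acinar sum weakly at most. Hipk2 averaged 19.7 CPM in NOD and 59.1 CPM in B10, where Ctrb1 averaged 34.0 and 678 CPM.

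Reg1 had 31.0, 4.49 and 3.29 CPM in NOD_insHEL, 6.03, 7.05 and 13.8 CPM in NOD, 3.44, 84.5 and 0.928 CPM in B10_insHEL, and 155, 115 and 156 CPM in B10. Dmbt1 had 12.7, 1.19 and 0.470 CPM in NOD_insHEL, 1.65, 3.85 and 1.58 CPM in NOD, 1.83, 50.3 and 0.825 CPM in B10_insHEL, and 130, 89.4 and 155 CPM in B10. Both were higher in NOD_insHEL replicate 1 than in the other 2 NOD_insHEL libraries, as was Zg16.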
